A study of Glycine max with 4 samples.

Results

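In well-watered leaves of the soybean (Glycine max) lines Pana and PI 567690, some genes were read clearly in one line and hardly at all in the other. Of 54175 gene models in the deposited table, 122 were on-off in this sense: all 3 control libraries of one line held at least 5 FPKM (fragments scaled to gene length and to the number of mapped reads) and all 3 of the other held less than 0.5 FPKM. Described here are the 67 of them whose line difference was lost under drought, meaning that the range of the 3 Pana drought libraries overlapped the range of the 3 PI 567690 drought libraries. Genes that switched fully in PI 567690 (from at least 5 to below 0.5 FPKM in all 3 drought libraries, or the reverse) were left out. Of the 67 genes, 51 were on in PI 567690 controls and 16 were on in Pana controls. The genes were thus selected on the measured control and drought levels of both lines, and the control difference and the overlap are descriptions and carry no test.

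Leaf RNA was sequenced in 4 groups of 3 libraries, the control and drought plants of each line. The labels call Pana susceptible to drought and PI 567690 tolerant of it. Plants grew in pots of soil mixed with sand, drought began at the V5 vegetative stage and lasted 15 days, and leaves were taken at the R2 flowering stage. The 3 libraries of a group are described as biological replicates, and the labels do not say which plants, or how many, stand behind each.

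As the soil dries, leaves lose turgor, stomata close through abscisic acid signalling, and many genes for growth and photosynthesis give way to genes of stress protection and senescence. Lines that wilt slowly keep water in the soil for longer, so leaves of a slow-wilting and a fast-wilting line can be under different degrees of stress on the same day. Soybean is an ancient polyploid in which many genes have a near-identical copy elsewhere in the genome. A gene that looks off may therefore have a copy that is on, and reads shared by copies can be split between them by the counting software. The files do not pair the gene identifiers with names or functions, and a search of the RefSeq gene table found 0 of 54175, so the genes appear by identifier, few of them are singled out, and no role is given. For the same reason the leaf label could not be checked against marker genes.

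Some libraries stood apart, and the results rest on them. Across the 32697 tested genes (at least 1 FPKM in at least 3 libraries), Pana drought library 3 correlated better with PI 567690 control library 1 (r = 0.938) than with any library of its own group (r = 0.863). The best match of both other Pana drought libraries was the first PI 567690 drought library, at r = 0.92 and 0.936. Pana control library 1 was also far from its group (highest r = 0.864). The other two PI 567690 drought libraries, numbers 2 and 3, had r = 0.992 with each other, above any other pair within a group. The labels were also checked against genes at 2 FPKM or more in all other libraries of one line and below 0.5 FPKM in all other libraries of the other. Of 11 such genes that mark PI 567690, Pana drought library 3 was off in 9 and on in 2. Of 6 that mark Pana, it was on in 3 and off in 2. Pana drought library 1 was on in 5 of 18 genes that mark PI 567690 and off in 9. This check was added after the data were seen, and its counts are small.

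The 51 genes on in PI 567690 controls were mostly of modest level. Their mean over the PI 567690 controls had a median of 9.91 FPKM over the genes, and 2 of them had a mean above 50 FPKM. In the Pana controls the median was 0.168 FPKM, and 4 genes were listed at 0 in all 3. The most abundant was Glyma17g37900, with 371.4, 354.1 and 295.6 FPKM in PI 567690 controls and 0.1837, 0.1418 and 0.08824 FPKM in Pana controls. Glyma19g43940 followed, with 86.73, 131.6 and 103.4 FPKM against 0, 0 and 0.0429 FPKM. In both genes the lines were far apart in every control library. The steps in the values of Glyma17g37900 give 5, 5 and 4 reads in the Pana controls and 10066, 19008 and 9727 reads in the PI 567690 controls.

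The 16 genes on in Pana controls had a median of 9.31 FPKM there and 0.0842 FPKM in PI 567690 controls. Glyma04g35130 held 74.68, 247.6 and 196.1 FPKM in Pana controls and 0.1441, 0.07275 and 0.0712 FPKM in PI 567690 controls. Glyma06g46280 held 185.9, 36.71 and 31.15 FPKM in Pana controls and was listed at 0, 0.08124 and 0 FPKM in PI 567690 controls. Control library 1 of Pana was the highest of its group for the second gene and the lowest for the first, so the on level itself spread widely in Pana.

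An off level below 0.5 FPKM rests on few reads. Whole reads could be read from the steps of the values, within 0.06 reads, for 36 of the 67 genes. For these, the median read number behind 0.5 FPKM went from 8.57 (library 1) to 14.3 (library 3) among Pana controls, and from 8.54 (library 1) to 16.9 (library 2) among PI 567690 controls. In 3 of the 36 genes it stood for less than 1 read in Pana control library 1, so that off means no read there. One gene on in PI 567690 controls, Glyma04g32280, is listed at 2.02485e-263 FPKM in Pana control library 2, a number that no whole read gives, and it is singled out here after its values were seen.

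**Figure D1:**
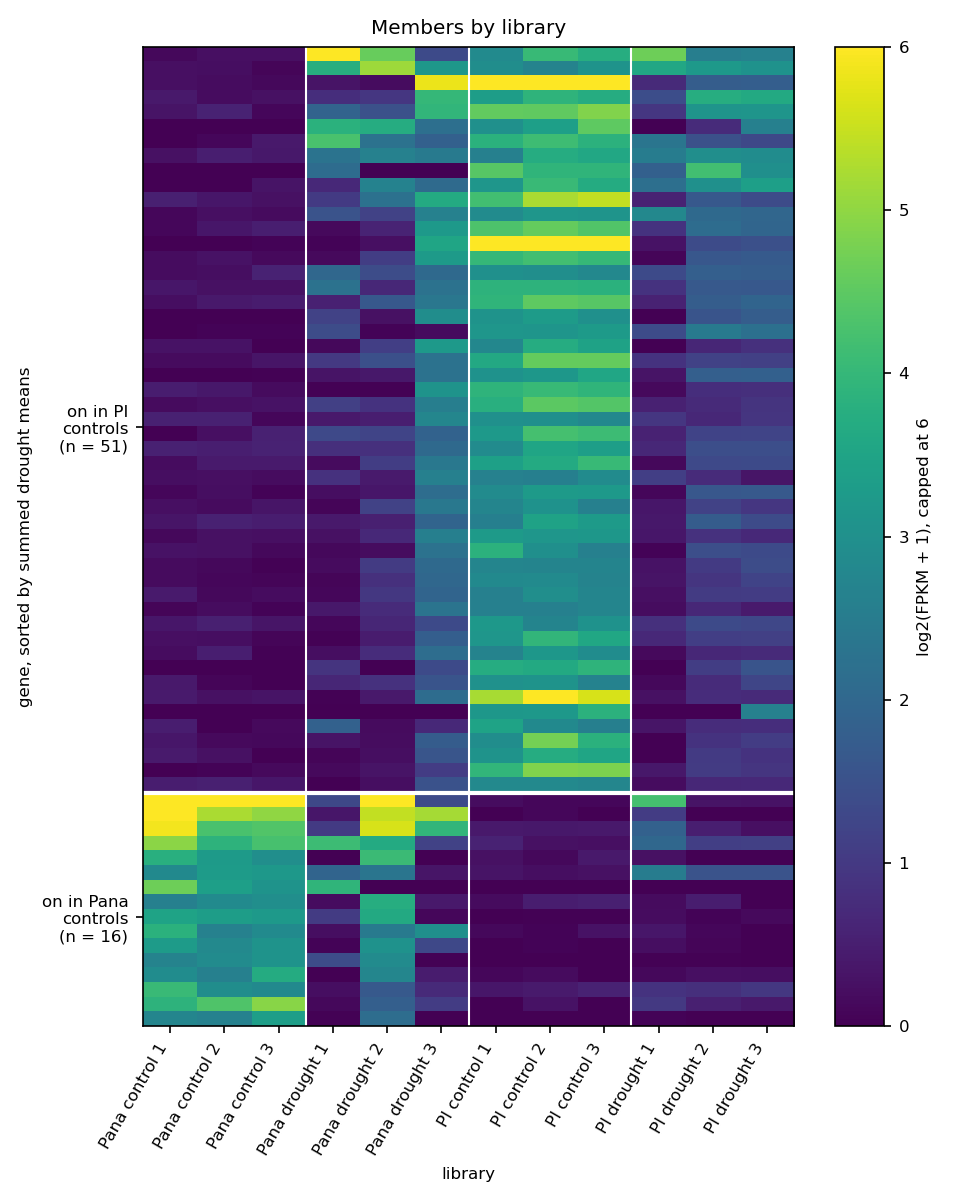
Level of the 67 genes (rows) in the 12 libraries (columns), as log2(FPKM + 1) with the colour scale capped at 6; PI stands for PI 567690. The 51 upper genes are dark in all 3 Pana controls and bright in all 3 PI 567690 controls, Pana drought library 3 is the brightest Pana drought library for most of them, and the 16 lower genes stay bright mainly in Pana drought library 2.

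Under drought most of the genes on in PI 567690 controls fell in that line. Drought was compared with control by limma, a linear model over all genes, on log2(FPKM + 1), with Benjamini-Hochberg adjustment at 0.05. In PI 567690, 43 of the 51 genes (84.3%) were called lower and 0 were called higher (45 lower and 0 higher at an unadjusted p under 0.05, against 11.9% and 18.1% of all tested genes). Among all tested genes 6.25% were called lower and 12.3% were called in either direction. The median log2 change of the 51 genes was -2.26, against 0.21 over all tested genes. All 3 drought libraries lay below the lowest control in 45 of them (88.2%), against 21.4% of all tested genes. These shares are not independent evidence of a fall. The genes were picked for a high PI 567690 control level and for a drought level within reach of Pana, and both favour a fall.

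Glyma17g37900 went to 0.6533, 2.421 and 2.466 FPKM in PI 567690 drought, a log2 change of -6.98 ± 1.13 SE (limma, adjusted p = 0.00331). Glyma19g43940 went to 0.2242, 1.605 and 1.753 FPKM, a log2 change of -5.69 ± 0.73 SE (limma, adjusted p = 0.00119). Both fell by far more than their libraries spread, and both kept a level above the Pana controls in every PI 567690 drought library. Both calls held in 22 of 22 settings. The count over the whole set was less steady. Members called in this contrast in either direction numbered 44, but 26 without PI 567690 control library 2, 27 without library 3 and 29 without PI 567690 drought library 1, all lower. The share of all tested genes called was then also smaller, at 3.81%, 3.46% and 5.31% in place of 12.3%. With Pana control library 1 and Pana drought library 3 both left out, 47 members were called, 45 of them lower, and 36.8% of all tested genes were called.

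The 32 genes that fell below 0.5 FPKM in all 3 PI 567690 drought libraries had been left out, so a complete fall could not occur among the 51. In PI 567690 drought libraries 2 and 3 the 51 genes stood at a median of 12.3% and 15.2% of their PI 567690 control mean, and in drought library 1 at 3.49%. In drought library 1, 31 genes were off, 17 were between 0.5 and 5 FPKM and 3 were on. In library 2 only 1 gene was off, and in library 3 it was 2 genes. Library 1 held the lowest value of the group in 44 of the 51 genes (86.3%), against 33.4% of all tested genes. It did so in 58.3% of the 6216 other tested genes whose PI 567690 control mean was at least 2 times the Pana control mean.

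In Pana the same 51 genes moved less and unevenly. Limma called 6 of them (11.8%) higher under drought and 0 lower, against 1.5% of all tested genes called higher and 2.15% called in either direction, and 20 were higher at an unadjusted p under 0.05, against 24.3% of all tested genes. The excess over the background depended on single libraries. Without Pana drought library 3, 10 of the 51 (19.6%) were called higher, against 20.6% of all tested genes. Without Pana control library 3 it was also 10 (19.6%), against 14.3%. The median log2 change was 0.97, against 0.32 over all tested genes. Since these genes were chosen below 0.5 FPKM in all Pana controls, they could hardly fall there. All 3 drought libraries lay above the highest control in 24 genes (47.1%), against 15.8% of all tested genes. The spread used in these calls is shared by all 12 libraries. In a fit of the 6 Pana libraries by themselves, limma called 0 of the 26 members then tested, and 2 of all 29041 genes tested. The 26 were 10 of the 51 genes and the 16 genes on in Pana controls. At an unadjusted p under 0.05 all of the 10 were higher and 7 of the 16 were lower. Of all genes tested, 9.25% were higher and 3.02% lower at such a p. The filter fixed the rise of the 10, since they could pass it only with all 3 Pana drought libraries at 1 FPKM or more.

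Glyma14g36860 rose most clearly in Pana, from 0.1827, 0.1692 and 0.0658 FPKM in the controls to 12.49, 33.79 and 8.069 FPKM under drought. Its log2 change was 3.83 ± 0.4 SE (limma, adjusted p = 0.002), and the call was lost only with the Pana libraries alone (adjusted p = 0.103). In PI 567690 it held 6.644, 5.431 and 7.529 FPKM in controls and 11.12, 8.344 and 7.381 FPKM under drought, a log2 change of 0.39 (adjusted p = 0.53). It was the only gene of the 51 with all 6 drought libraries at 5 FPKM or more, and the Pana drought values lay above every PI 567690 control.

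Glyma12g14570 was listed at 0 in all 3 Pana controls and at 13.27, 12.08 and 3.575 FPKM in Pana drought (limma, adjusted p = 0.0303). In PI 567690 it held 7.107, 9.421 and 21.98 FPKM in controls and 0, 0.6621 and 5.136 FPKM under drought (adjusted p = 0.0267). The Pana drought values rest on 26, 21 and 8 reads, against 0 reads in each Pana control. The PI 567690 values rest on 8, 21 and 30 reads in controls and on 0, 1 and 9 reads under drought. In this gene 1 read is 0.885 FPKM in Pana control library 1, so that off means no read there. Its call in Pana held in 14 of 22 settings. It did not pass with no filter on low values (adjusted p = 0.0607) or with the Pana libraries alone (0.103). Nor did it pass when 1 of 6 libraries was set aside: the first or second Pana control (0.0748 and 0.0931), the first or second Pana drought library (0.0922 and 0.088), or the second PI 567690 control or drought library (0.0556 and 0.0536).

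The level that the 51 genes had in Pana drought came mainly from library 3. They stood at a median of 35.5% of their PI 567690 control mean in Pana drought library 3, at 7.39% in library 2 and at 3.24% in library 1, against 1.01% to 1.47% in the Pana controls. Library 3 held the highest value of its group in 40 of the 51 genes (78.4%). Over all tested genes it did so in 28.3%, and in 52.1% of the 6216 other tested genes whose PI 567690 control mean was at least 2 times the Pana control mean. It lay above every PI 567690 drought library in 39 of the 51 genes. Pana drought library 1 did so in 9 genes and library 2 in 8. The overlap in the rule asked for a Pana drought library within reach of PI 567690 drought, which favours a high library here. In the 12 genes on in PI 567690 controls whose line ranges stayed apart under drought, library 3 stood out less. The medians there were 13%, 2.85% and 14.7% of the PI 567690 control mean in Pana drought libraries 1, 2 and 3.

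Glyma17g37900 shows this most sharply, with 0.2546, 0.1434 and 55.73 FPKM in Pana drought libraries 1, 2 and 3. Glyma19g43940 likewise held 0.04126, 0.1859 and 10.62 FPKM. In both genes libraries 1 and 2 stayed near the Pana controls and library 3 lay above all 3 PI 567690 drought libraries. Their log2 changes in Pana were 1.93 ± 1.13 and 1.26 ± 0.73 SE, and neither passed (limma, adjusted p = 0.261 and 0.256).

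**Figure D2:**
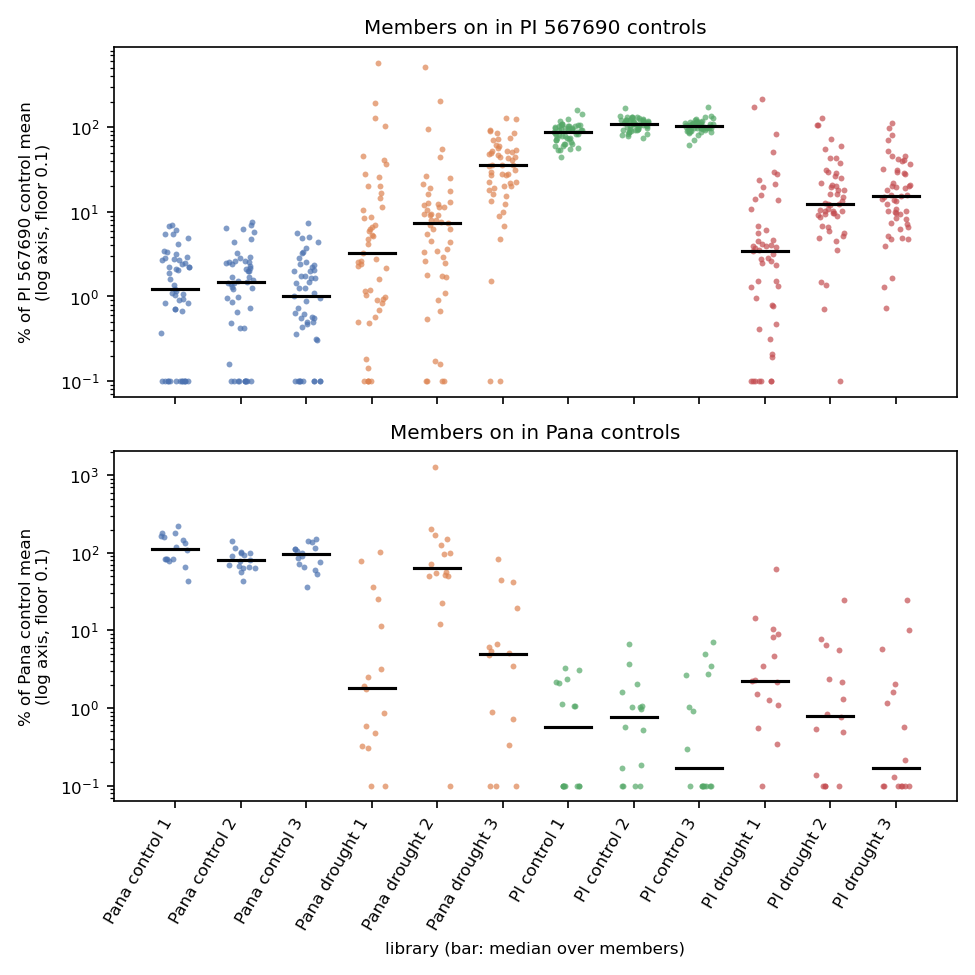
Each point is 1 gene in 1 library, as a percentage of that gene's mean over the 3 control libraries of the line in which it was on, on a log axis with values under 0.1% drawn at 0.1%; bars are medians and PI stands for PI 567690. For the 51 genes of the upper panel the median is 35.5% in Pana drought library 3 and 3.49% in PI 567690 drought library 1, and for the 16 genes of the lower panel it is 64.6% in Pana drought library 2.

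The 16 genes on in Pana controls showed another pattern among the Pana drought libraries. Library 2 kept a median of 64.6% of the Pana control mean, while libraries 1 and 3 kept 1.83% and 4.98%. Library 2 was on in 10 of the 16 genes, library 1 in 2 and library 3 in 3. Library 2 held the highest value of its group in 13 genes (81.3%), against 27.6% of all tested genes. It did so in 40% of the 3391 other tested genes whose Pana control mean was at least 2 times the PI 567690 control mean. PI 567690 stayed low: its drought libraries had medians of 2.24%, 0.798% and 0.171% of the Pana control mean, and 1 gene was on in 1 of them. In 9 of the 16 genes all 3 PI 567690 drought libraries stayed below 0.5 FPKM. In all 16 genes, library 1 or 3 of Pana drought was at or below the highest PI 567690 drought library. This follows from the overlap in the rule, because library 2 was never the only lowest Pana drought library.

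Limma called 3 of the 16 genes (18.8%) lower in Pana under drought, against 0.658% of all tested genes, and 11 were lower at an unadjusted p under 0.05, against 5.33%. Their median log2 change was -1.86. All 3 Pana drought libraries lay below the lowest control in 4 of 16 genes (25%), against 3.94% of all tested genes. Again the high Pana control level that chose the genes favours a fall. Without Pana drought library 2, 10 genes were called lower (0.48% of all tested genes), and without library 3 it was 5 (4.83%). In PI 567690, 1 of 16 genes (6.25%) was called higher, close to the 6.06% of all tested genes. All 3 drought libraries of PI 567690 lay above its controls in 7 genes (43.8%), close to the 42.4% of all tested genes.

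Glyma01g04285 fell in Pana from 13.78, 19.43 and 29.35 FPKM to 0.09885, 2.505 and 1.082 FPKM, a log2 change of -3.39 ± 0.39 SE (limma, adjusted p = 0.00314). In PI 567690 it went from 0, 0.2172 and 0 FPKM to 0.985, 0.4487 and 0.3315 FPKM, which did not pass (adjusted p = 0.362). Glyma17g15220 fell in Pana from 15.88, 6.645 and 6.25 FPKM to 0.1679, 2.194 and 0.6467 FPKM, a log2 change of -2.42 ± 0.38 SE (limma, adjusted p = 0.0119). In PI 567690 it held 0.2922, 0.3541 and 0.4814 FPKM in controls and 0.8517, 0.7403 and 0.9761 FPKM under drought (adjusted p = 0.468). In both genes every Pana drought library was below every Pana control. The overlap of the lines under drought still hung on single libraries: it ended without Pana drought library 1 for Glyma01g04285 and without Pana drought library 2 for Glyma17g15220. Both calls were lost with the Pana libraries alone (adjusted p = 0.109 and 0.228).

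Glyma20g36160 was the gene of the 16 that was called higher in PI 567690, going from 0.2532, 0.1598 and 0.2086 FPKM to 4.778, 1.887 and 1.891 FPKM. The log2 change was 1.59 ± 0.45 SE (limma, adjusted p = 0.0404). In Pana it held 6.174, 8.875 and 8.189 FPKM in controls and 2.837, 4.015 and 0.2706 FPKM under drought (adjusted p = 0.0786). Its call in PI 567690 held in 11 of 21 settings, over adjusted p from 0.002 to 0.168. It was lost with no filter on low values, without Pana control library 2 or 3, when any 1 of the 6 PI 567690 libraries was set aside, and when the near-identical drought pair of that line was averaged.

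The remaining named genes on in Pana controls show how far single drought libraries parted. Glyma04g35130 held 1.474, 2192 and 1.536 FPKM in Pana drought and 17.91, 0.2362 and 0.2221 FPKM in PI 567690 drought. Library 2 of Pana drought was thus above all Pana controls, while libraries 1 and 3 were far below them and within the PI 567690 drought range. PI 567690 drought library 1 alone was far above the controls of its line. Neither drought effect passed (limma, adjusted p = 0.393 and 0.664). Glyma06g46280 held 0.2773, 42.59 and 35.73 FPKM in Pana drought and 1.089, 0 and 0 FPKM in PI 567690 drought. Its overlap under drought rests on Pana drought library 1 and PI 567690 drought library 1, and neither drought effect passed (limma, adjusted p = 0.196 and 0.873).

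**Figure D3:**
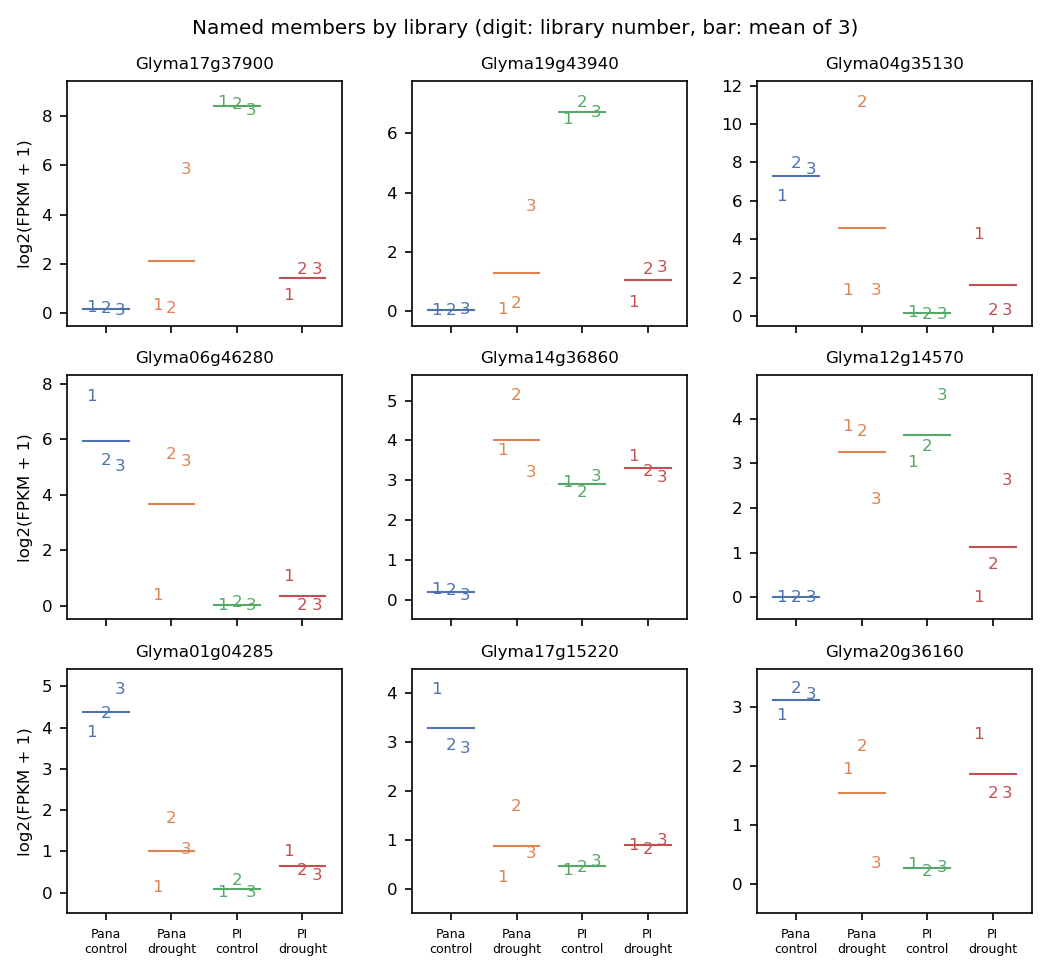
Level of the 9 named genes as log2(FPKM + 1) in each library; digits are library numbers, horizontal bars the mean of the 3 libraries, and PI stands for PI 567690. In Glyma17g37900 and Glyma19g43940 library 3 alone is high in Pana drought, in Glyma04g35130 library 2 alone, and in Glyma14g36860 all 6 drought libraries are high.

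In the 51 genes the median line difference, PI 567690 minus Pana on log2(FPKM + 1), was 3.24 in controls and -0.22 under drought, with a range under drought from -2.13 to 2.3. The fall in PI 567690 (median 2.26) was larger than the rise in Pana (median 0.97) in 42 of the 51 genes. Adding 1 to the FPKM dampens changes at low levels, and so the rise more than the fall. With 0.1 added instead, the median log2 change of the 51 genes was -3.36 in PI 567690 and 2.28 in Pana. In the 16 genes the median difference, Pana minus PI 567690, was 3.06 in controls and 1.34 under drought, and the fall in Pana was larger than the rise in PI 567690 in 15 of 16. Pana remained the higher line in the mean of 14 of these 16 genes, although the ranges overlapped.

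The sign of the median drought difference in the 51 genes depended on single libraries. With all libraries the drought mean was higher in PI 567690 in 17 of 51 genes. Without Pana drought library 3 it was higher in 37 of 51, the median difference was 0.36 in place of -0.22, and the median rise in Pana was 0.42 in place of 0.97. Without PI 567690 drought library 1 it was higher in 29 of 51 (median 0.11). For the 16 genes on in Pana controls, the median drought difference fell from 1.34 to 0.26 without Pana drought library 2, and Pana was then higher in 10 of 16. What sets these libraries apart was not tested.

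**Figure D4:**
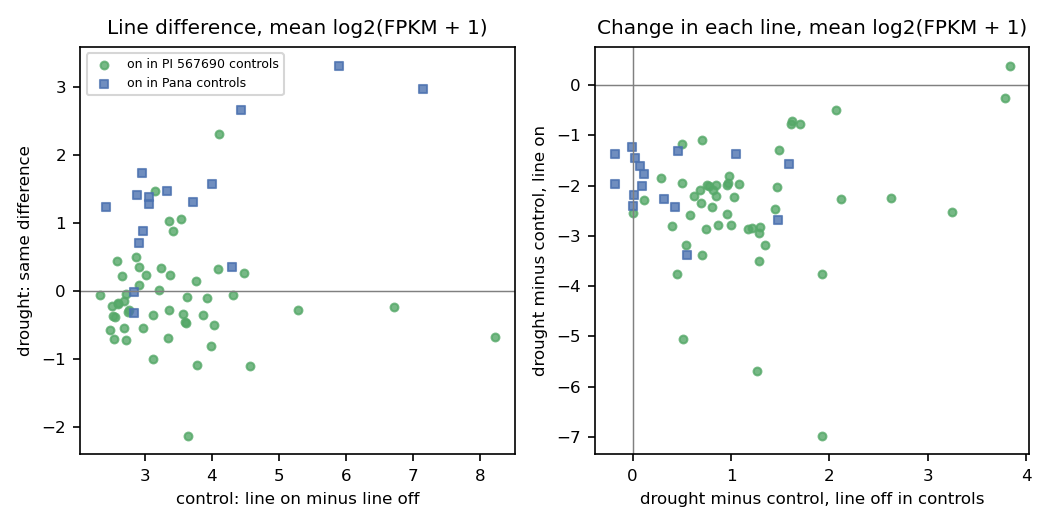
Left, line difference of each gene in mean log2(FPKM + 1), the line that was on minus the line that was off, in controls (x) and under drought (y). Right, the drought change in the line that was off (x) and in the line that was on (y). Circles are the 51 genes on in PI 567690 controls, whose median drought difference is -0.22, and squares the 16 genes on in Pana controls, whose median is 1.34.

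Limma called 0 of the 67 genes different between the lines under drought, with 11 at an unadjusted p under 0.05. Of all tested genes 6.84% were at such a p and 0.388% were called (0.291% higher and 0.0979% lower in PI 567690). Among the 51 genes 3 were higher and 1 was lower in PI 567690 at such a p, and among the 16 genes 7 were lower. Of all tested genes 5.03% were higher and 1.81% lower at such a p. The larger share among the 67 genes thus came from the 16, although the rule asked for overlap here. With so few of all tested genes called, 0 calls is no result about the 67 genes. The largest difference was that of Glyma06g46280, a log2 difference of -3.31 (PI 567690 minus Pana), which did not pass (limma, adjusted p = 0.454). Without Pana drought library 1, 5 of the 67 genes were called, among them Glyma06g46280 (adjusted p = 0.00537), and without Pana drought library 3 it was 2. Of all tested genes 0.563% and 0.572% were called in these fits. In controls all 67 genes were called, as the rule makes likely, against 14.6% of all tested genes. Of these, 51 were higher in PI 567690 and 16 lower, against 11.4% and 3.13% of all tested genes. The drought effects of the lines differed in 47 members (5.59% of all tested genes), negatively (PI 567690 minus Pana) in 44 (4.24%) and positively in 3 (1.36%), which the choice of genes also makes likely.

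How many genes lose their difference depends on single libraries too. The overlap ended for 15 of the 67 genes when Pana drought library 3 was set aside and for 14 without Pana drought library 1. It ended for 10 without PI 567690 drought library 1, for 7 without Pana drought library 2, for 3 without PI 567690 drought library 3 and for 1 without library 2. In 39 genes at least 1 such library ended it, and in 28 genes (24 on in PI 567690 controls and 4 on in Pana controls) none did alone.

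**Figure D5:**
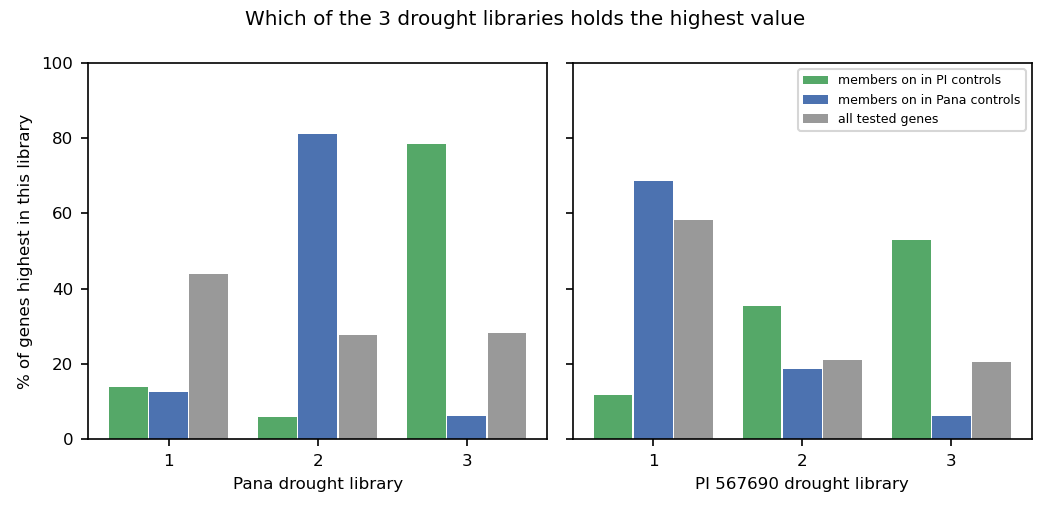
Percentage of genes whose highest value among the 3 drought libraries of a line lies in the library given on the x axis, for the 51 genes on in PI 567690 controls, the 16 genes on in Pana controls and the 32697 tested genes. Pana drought library 3 is highest for 78.4% of the first set and Pana drought library 2 for 81.3% of the second, against 28.3% and 27.6% of all tested genes. Among other tested genes at least 2 times higher in PI 567690 controls, not drawn, Pana drought library 3 is highest in 52.1%. For Pana drought library 2 it is 40% of those at least 2 times higher in Pana controls.

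Of the 122 on-off genes, 19 (15.6%) had line ranges that stayed apart under drought, close to the 14% of all tested genes. In controls the line ranges were apart in 40.6% of all tested genes. The share of on-off genes that overlapped under drought is thus near the background and is no result about these genes.

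The other on-off genes show where the 67 differ. The 36 overlapping genes left out as full switches (32 on in PI 567690 controls and 4 on in Pana controls) were, by definition, off (the 32) or on (the 4) in all 3 PI 567690 drought libraries. In the 32, Pana drought libraries 1 and 2 stood at a median of 0.181% and 0.417% of the PI 567690 control mean, and library 3 at 15.5%. Pana drought library 3 was thus the exception there too, at a lower level than the 35.5% in the 51 genes. In the 12 genes on in PI 567690 controls whose ranges stayed apart, the PI 567690 drought libraries kept medians of 54.1%, 56.1% and 51.2% of the control mean, against 3.49%, 12.3% and 15.2% in the 51 genes. In the 7 such genes on in Pana controls, the Pana drought libraries kept 94.1%, 72.9% and 61% of the control mean, against 1.83%, 64.6% and 4.98% in the 16. Drought levels chose these sets, so the contrast is a description.

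The 67 genes were spread over the genome as far as the chromosome numbers in their identifiers tell. Members carried the numbers of 19 of the 20 chromosomes, with none on chromosome 5. Chromosome 12 held 8 of the 67 genes (11.9%), all on in PI 567690 controls, against 4.37% of the tested genes. Chromosome 8 held 9 genes (13.4%), against 6.91%. No pair of members was adjacent in identifier order. Only 2 pairs lay within 20 places, Glyma12g33420 with Glyma12g33560 and Glyma17g37900 with Glyma17g38120, named for their position after the values were seen. All 4 genes were on in PI 567690 controls.

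The thresholds cut through a continuous range. Glyma14g28090 was just inside the upper threshold, with 5.172, 5.015 and 6.39 FPKM in PI 567690 controls. Glyma03g27960, with 4.987, 6.139 and 5.293 FPKM, was just outside. Glyma04g02140 was just inside the lower threshold, with 0.4735, 0.4232 and 0.4937 FPKM in Pana controls, and Glyma10g30130, with 0.5047, 0.4411 and 0.3326 FPKM in PI 567690 controls, was just outside. In 2 genes the drought ranges touched at an equal value only, both at 0 FPKM: Glyma17g37171, on in PI 567690 controls, and Glyma08g38020, on in Pana controls. Both were singled out after their values were seen. In bulk leaf RNA, fewer cells of a type and less RNA per cell cannot be told apart, for any of the changes given here.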

How the data were processed

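The authors deposited 1 table of FPKM values with 12 columns, whose names give the line and the treatment. The unit was read from the values. Per the submitters' processing notes, the tools included TopHat 1.4.1, Cuffdiff, Cufflinks and FastQC. The build is not given in the sources used here. Because FPKM is a share of the library, very abundant genes can lower the values of the rest.

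The members, lists and tests were chosen with earlier results of these data known. Genes reaching 1 FPKM in 3 or more libraries were fitted on log2(FPKM + 1), 1 coefficient per group over all 12 libraries, with limma 3.58.1 in R 4.3.3 (trend; prior and residual degrees of freedom 3.42 and 8). Such fold changes understate the change of low genes. All 67 members passed this filter through the group where they are high. P-values reflect only how far these libraries spread, which may be technical, and groups of 3 allow no exact permutation p under 0.1. The fit was tested on simulated data. Reads were recovered from value steps after scaling by relative depth (48.3% to 100% of Pana drought library 3). These depths limit the precision of levels below 0.5 FPKM.

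Named genes were, for each direction, the 2 with the highest lowest control value in the line that was on, the 2 largest passing changes within each line and between the lines under drought (the largest where none passed), the highest in the drought library that alone made most overlaps, and those next to the thresholds. Others are said to be chosen after their values were seen. Alternatives covered scaling, filter, pseudocount, thresholds and libraries. Python 3.11.15, numpy 2.4.6, pandas 2.3.3 and matplotlib 3.10.9 were used.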

Additional observations from a re-analysis of the deposited data

Results flagged for a closer look

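The drought effects of the lines differed in 7 of the 9 named genes, by limma's test of the difference (PI 567690 minus Pana, log2, adjusted over all tested genes). A line difference that is present in controls and lost under drought is such a difference by construction, so these values describe the choice of genes. The difference was negative for genes on in PI 567690 controls: -8.91 for Glyma17g37900 (adjusted p = 0.00999), -6.95 for Glyma19g43940 (0.00519), -5.77 for Glyma12g14570 (0.00608) and -3.44 for Glyma14g36860 (0.0069). For Glyma12g14570, listed at 0 in all Pana controls, the size depends on the pseudocount. It was positive for genes on in Pana controls: 3.94 for Glyma01g04285 (adjusted p = 0.0043), 2.85 for Glyma17g15220 (0.0122) and 3.17 for Glyma20g36160 (0.0158). Dixon's test for a single outlying sample was not run, since groups of 3 are too small for it here.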

How the results depend on the processing

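The number of members was 18 with thresholds of 10 and 0.25 FPKM (10 of them among the 67) and 378 with 2 and 1 FPKM (57 of the 67). It ranged from 52 to 102 with each library left out, the highest without PI 567690 control library 1. It was 56 after scaling to an equal median ratio (53 shared) and 79 without both Pana control library 1 and Pana drought library 3, a choice made after seeing the data. Members called for drought in Pana (9) were 5 with no filter, 5 of 24 tested at a mean of at least 5 FPKM, 14 with a pseudocount of 0.1, 0 with the Pana libraries alone, and 4 to 16 with each library left out. Such members were 5 without Pana control library 1 (1.35% of all tested genes), 4 without library 2 (0.43%) and 16 without Pana drought library 2 (1.11%). They were 15 without Pana drought library 3 (22.4% of members against 25.4% of all tested genes). Without PI 567690 control library 2 or drought library 2 they were 5 (0.895% and 0.85%). Those called in PI 567690 (44, with 12.3% of all tested genes) were 12 at a mean of at least 5 FPKM (8.46%). With each library left out they were 26 to 47, while 3.46% to 21.6% of all tested genes were called. Those called between the lines in controls (67, with 14.6% of all tested genes) were 22 at that mean (7.87%). With each library left out they were 61 to 67, while 6.14% to 21.7% of all tested genes were called. Under drought (0, with 0.388%) they were 0 to 5 with each library left out, while 0.163% to 0.594% of all tested genes were called. Without both doubted libraries they were 2 (1.32%). For the difference of the drought effects (47, with 5.59% of all tested genes) they were 14 at that mean (2.28%). They were 29 without PI 567690 control library 2 (1.7%) and 27 without library 3 (1.43%). With each library left out they were 27 to 55, while 1.43% to 7.18% of all tested genes were called. At a mean of at least 5 FPKM only 24 members are tested.

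Column numbers did not pair the libraries throughout. Between the drought groups, same-numbered deviations correlated at 0.66 (number 1), -0.11 (number 2) and 0.61 (number 3), and 4 of 6 libraries correlated best with their own number. Between Pana control and drought they correlated at -0.06 to 0.16, with 3 of 6 best with their own number. What the same-numbered drought libraries share was not tested. With the number as a replicate block the calls were 10 (Pana), 44 (PI 567690), 67 (controls), 0 (drought) and 48 (difference). Of all tested genes 1.63%, 14.3%, 16%, 0.33% and 6.3% were then called, in the same order. For the named genes, 229 values in other settings kept direction and call, 32 lost a call and 1 gained it. The drought line difference of Glyma17g37900 (-0.68) turned to 0.0057 with a pseudocount of 0.1 and to 1.17 without Pana drought library 3, also with Pana control library 1 left out besides (range with each library left out -1.65 to 1.17). The causes were not tested. The control call of Glyma04g35130 held in 10 of 21 settings. Depth limits the off levels, of which 0.5 FPKM is a median of 8.2 to 17 reads per library.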
